A study of Mus musculus with 8 samples.

Results

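The miR-17-92 cluster is a run of 6 miRNA hairpins on mouse chromosome 14, and 7 of its mature miRNAs were taken as members by name: mmu-miR-17-5p, mmu-miR-17-3p, mmu-miR-18a-5p, mmu-miR-19a-3p, mmu-miR-19b-3p, mmu-miR-20a-5p and mmu-miR-92a-3p, written without the species prefix from here on. All 7 were on the array, with 14 probes, among 1881 mouse miRNAs with 4415 probes, and all 7 were among the 385 miRNAs that could be tested. The rule for choosing them uses names and no measured value, but the cluster was picked with earlier results of these data known. The RNA came from footpad skin of C57BL6 embryos, in 4 groups: Dicer conditional knockout (cKO) at embryonic stage E16.5, wild type (WT) at E16.5, cKO at E17.5 and WT at E17.5. Each group had 2 single-colour Agilent arrays, and each array held RNA pooled from 3 to 5 embryos. The labels name neither the Cre line nor the cells in which Dicer was removed, and the probes are for mature miRNAs, so the loss of Dicer itself was not measured here. With pools as replicates, a p-value measures the spread between pools, and the number of arrays limits the precision.

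The members are cut from 1 primary transcript, first by Drosha in the nucleus and then by Dicer in the cytoplasm, so that the hairpins share their transcription but not their later processing. Transcription of the cluster is driven by MYC and E2F factors, and its miRNAs are known for promoting proliferation and survival. A miRNA finds its targets mainly through its seed, bases 2 to 8 of the mature strand: the miR-17 seed is known to repress the cell-cycle inhibitor Cdkn1a and the pro-apoptotic Bcl2l11.

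The mature sequences show how the members divide by seed, which is in capitals (5′ to 3′, RefSeq, GRCm38.p6; all 7 members were matched). miR-17-5p and miR-20a-5p share the seed AAAGUGC, and miR-18a-5p differs from it inside the seed. miR-19a-3p and miR-19b-3p share a seed and differ at 1 position, U11C, counted from 1 at the 5′ end. miR-92a-3p and miR-17-3p each have a seed of their own within the cluster.
miR-17-5p: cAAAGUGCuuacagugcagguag
miR-20a-5p: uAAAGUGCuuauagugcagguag
miR-18a-5p: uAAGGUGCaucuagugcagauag
miR-19a-3p: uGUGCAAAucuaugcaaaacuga
miR-19b-3p: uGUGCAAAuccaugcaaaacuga
miR-92a-3p: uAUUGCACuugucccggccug
miR-17-3p: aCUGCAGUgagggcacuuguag

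On GRCm38.p6 the 6 hairpins run in the order Mir17, Mir18, Mir19a, Mir20a, Mir19b-1 and Mir92-1 on the plus strand of chromosome 14, from 115043671 to 115044506, a span of 836 bases. RefSeq places the host gene Mir17hg at 115044390 to 115046728, so that 5 of the 6 hairpins start before its annotated start and 1 lies inside it. Mir17 is the one hairpin with both arms among the members, and its 2 arms are in capitals (chr14:115043671-115043754, plus strand).
Mir17: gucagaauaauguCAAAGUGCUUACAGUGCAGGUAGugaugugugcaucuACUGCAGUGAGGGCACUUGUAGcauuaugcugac

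Several members cannot be assigned to this locus alone. Mature miR-19b-3p and miR-92a-3p are made with identical sequence from hairpins of the miR-106a-363 cluster on chromosome X, so their probes read the sum of both loci. The brighter miR-17-5p probe has only 13 bases, and its target is in capitals in miR-17-5p and in the relatives whose bases it shares without a break. All 13 bases are present in miR-106a-5p, which is not named as a target of any probe, 11 in miR-20a-5p and in miR-20b-5p, 10 in miR-93-5p and 9 in miR-106b-5p. How much of the miR-17-5p signal came from these relatives was not tested.
miR-17-5p: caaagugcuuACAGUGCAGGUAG
miR-106a-5p: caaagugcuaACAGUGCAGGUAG
miR-20a-5p: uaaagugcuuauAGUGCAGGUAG
miR-20b-5p: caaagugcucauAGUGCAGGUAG

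Each array's signals were divided by its own 75th percentile, taken over probes that all 8 arrays detected, so a scaled signal of 1 equals that percentile (percentile scaling, used wherever no other is named). Detected miRNAs numbered 279 to 384 per array, and replicate arrays had r = 0.997 to 0.999 over the tested miRNAs, a description only. All arrays lay on a single slide, each group in its own column, so slide column and group cannot be told apart. Levels of different probes were not compared with each other.

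Over both stages the cluster was lower in cKO than in WT in 5 of 7 members and higher in none. Of the 385 miRNAs tested, 14.5% were called lower and 45.7% higher in the same comparison (limma, Benjamini-Hochberg adjusted p under 0.05). The members did not move equally: miR-20a-5p, miR-17-5p and miR-18a-5p fell by 0.48 to 0.56 on the log2 scale, miR-92a-3p and miR-19a-3p by 0.23 and 0.19, and miR-19b-3p and miR-17-3p did not pass. The median of the members was −0.23 on the log2 scale, against 0.17 for all tested miRNAs. All 7 members lay below that median over both stages, also under each of the 6 scalings of the arrays that were run.

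The skin epithelium markers had larger changes than any member. The summed scaled signal of 7 skin epithelium miRNAs (the miR-200 family, miR-203-3p and miR-205-5p) was 3.75 to 4.01 in E16.5 cKO against 26.3 to 26.9 in E16.5 WT, and 2.58 to 3.43 in E17.5 cKO against 28.2 to 31.2 in E17.5 WT. All 7 were lower in cKO, with a median of −3.12 with percentile scaling, and all 7 passed under each of 6 scalings. The sum of 8 dermal mesenchyme miRNAs was 63.9 to 65.6 in E16.5 cKO against 50.7 to 55.6 in E16.5 WT, and 68.2 to 69.6 in E17.5 cKO against 48.7 to 50.5 in E17.5 WT. Over both stages 7 of 8 were called higher with percentile scaling but 7 lower with control-probe scaling. Among all 385 tested miRNAs, 45.7% were called higher with percentile scaling, and 284 lower with control-probe scaling. The sum of 5 skeletal muscle miRNAs was 9.98 to 10.5 in E16.5 cKO against 8.50 to 8.53 in E16.5 WT, and 11.3 to 12.1 in E17.5 cKO against 9.27 to 9.55 in E17.5 WT. For the other lists, blood markers summed to 4.63 to 5.08 in cKO against 3.14 to 5.05 in WT, endothelial markers to 2.01 to 2.54 in cKO against 1.56 to 1.91 in WT and cartilage markers to 0.80 to 2.16 in cKO against 0.74 to 1.35 in WT. The nerve list summed to 0.579 to 0.684 in cKO against 0.514 to 0.595 in WT, and its defining markers miR-124-3p and miR-9-5p were detected on 0 arrays. In whole skin, fewer cells of a type and less of a miRNA per cell cannot be told apart, and the part of these shifts in the members' changes was not tested.

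miR-20a-5p, which carries the miR-17 seed and restrains cell-cycle inhibitors, had the lowest change of the cluster. Its scaled signal was 1.35 and 1.35 in E16.5 cKO, against 2.02 and 1.91 in E16.5 WT. In E17.5 skin the values were 1.31 and 1.34 in cKO, against 1.97 and 1.98 in WT. All 4 cKO arrays lay below all 4 WT arrays, and within each genotype the stages were close. Over both stages its log2 change was −0.56 ± 0.0235 (SE, n = 4 arrays in each genotype, limma adjusted p = 5.15e-05), or 1.47-fold lower. Only 21 of the 385 tested miRNAs had a lower change.

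miR-17-5p, the 5′ arm of the first hairpin, moved in the same way. Its scaled signal was 0.211 and 0.209 in E16.5 cKO, against 0.311 and 0.293 in E16.5 WT. Its E17.5 values were 0.184 and 0.173 in cKO, against 0.273 and 0.255 in WT. The genotypes did not overlap, and the order of the groups from low to high was E17.5 cKO, E16.5 cKO, E17.5 WT and E16.5 WT. It fell by 0.54 ± 0.0407 (SE, limma adjusted p = 3.35e-04). The 12-base second probe was not detected on replicate 2 of E16.5 cKO, where 6.67% of its spots were well above background, so no change is given from it alone.

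miR-18a-5p, whose seed differs from that of miR-17-5p by 1 base, was lower in cKO as well. Its scaled signal was 0.322 and 0.308 in E16.5 cKO, against 0.490 and 0.457 in E16.5 WT. For E17.5 the values were 0.307 and 0.316 in cKO, against 0.400 and 0.411 in WT. The cKO arrays of both stages lay together below all WT arrays, and among WT arrays those of E16.5 were the higher. Over both stages it fell by 0.48 ± 0.0345 (SE, limma adjusted p = 3.01e-04).

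miR-92a-3p, the last miRNA of the cluster and known for restraining vessel growth, changed by less. Its scaled signal was 1.35 and 1.33 in E16.5 cKO, against 1.57 and 1.64 in E16.5 WT. Its E17.5 values were 1.16 and 1.17 in cKO, against 1.37 and 1.32 in WT. The genotypes did not overlap within a stage, but the E16.5 cKO and E17.5 WT arrays overlapped. Over both stages it fell by 0.23 ± 0.0216 (SE, limma adjusted p = 6.63e-04).

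The miR-19 pair was near the edge of detection of a difference. miR-19a-3p had a scaled signal of 0.560 and 0.541 in E16.5 cKO, against 0.682 and 0.611 in E16.5 WT. In the E17.5 groups it had 0.570 and 0.585 in cKO, against 0.634 and 0.649 in WT. The genotypes did not overlap, and over both stages it fell by 0.19 ± 0.0415 (SE, limma adjusted p = 0.0126). Without replicate 2 of E17.5 WT the value was −0.18 and the adjusted p 0.0562, and with all probes used for scaling, or with no scaling, the adjusted p was 0.105 or 0.0855. Over its 21 alternatives the adjusted p lay between 1.2e-05 and 0.105.

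miR-19b-3p had a scaled signal of 4.20 and 4.07 in E16.5 cKO, against 4.54 and 4.20 in E16.5 WT. Its E17.5 values were 4.29 and 4.47 in cKO, against 4.53 and 4.59 in WT. The ranges of the genotypes overlapped across stages. The change was −0.07 (95% interval −0.15 to 0.01, limma adjusted p = 0.118). It passed as lower under 2 of 6 scalings, and also without replicate 2 of E16.5 cKO (−0.11, adjusted p = 0.0195) or without replicate 2 of E16.5 WT (−0.12, adjusted p = 0.0105), with adjusted p of 1.9e-05 to 0.275 over its 21 alternatives.

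miR-17-3p, the 3′ arm of the first hairpin, had a scaled signal of 0.292 and 0.286 in E16.5 cKO, against 0.297 and 0.294 in E16.5 WT. The E17.5 arrays gave 0.273 and 0.286 in cKO, against 0.257 and 0.254 in WT. The cKO arrays thus lay just below WT at E16.5 and above WT at E17.5. Over both stages its change was 0.05 (95% interval −0.02 to 0.12, limma adjusted p = 0.199) with percentile scaling and 0.04 with quantile scaling. It was negative under the other 4 of 6 scalings, at −0.03 with median scaling, −0.23 with all-probe scaling, −0.26 with no scaling and −0.51 with control-probe scaling. The second probe, 1 base shorter at the end that faces the loop, gave −0.10 (adjusted p = 0.0308), so the 2 probes of this miRNA disagree in sign.

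**Figure D1:**
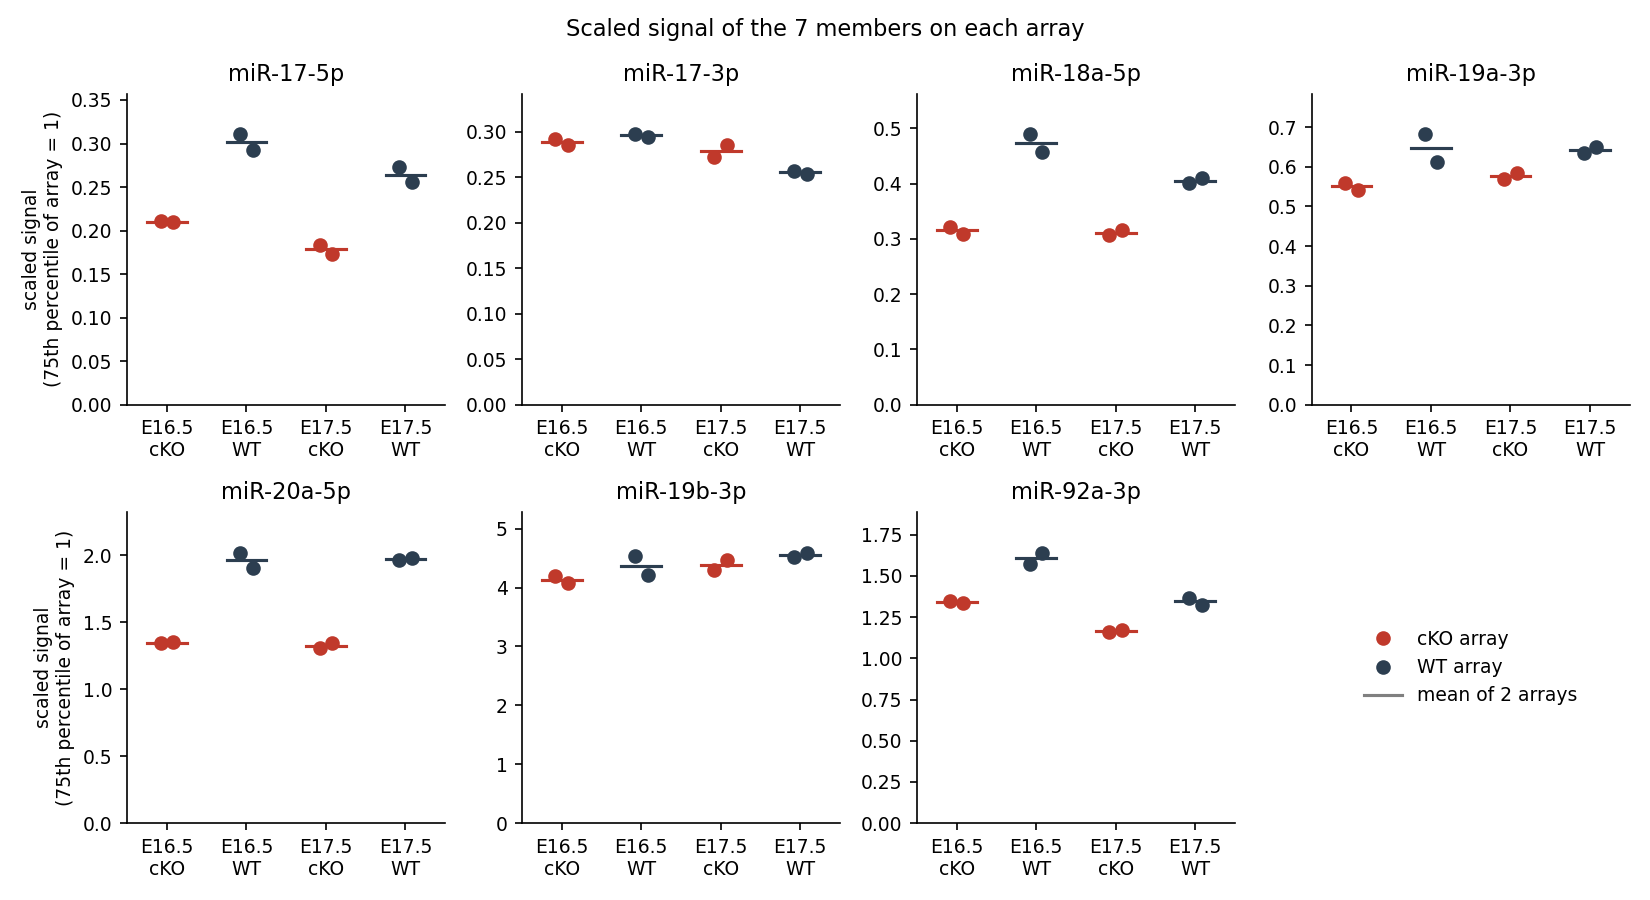
Scaled signal (vertical axis, linear from 0, with the 75th percentile of detected probes set to 1) of the 7 members on each of the 8 arrays, with E16.5 cKO, E16.5 WT, E17.5 cKO and E17.5 WT along the horizontal axis. Points are arrays and bars are means of 2 arrays. The cKO points of miR-17-5p, miR-18a-5p, miR-19a-3p and miR-20a-5p all lie below the WT points. Those of miR-19b-3p overlap with WT across stages, and those of miR-17-3p lie above WT at E17.5.

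The size of the change depended on the scaling between arrays, since the whole distribution moves with it. All tested miRNAs together had a median change of 0.17 with percentile scaling and between −0.32 and 0.11 under the other 5, and the split of calls over all tested miRNAs, 56 lower and 176 higher with percentile scaling, was 284 lower and 4 higher with control-probe scaling. miR-17-5p, miR-18a-5p, miR-20a-5p and miR-92a-3p were called lower under 6 of 6 scalings. Their changes ran from −1.10 to −0.54 in miR-17-5p, from −1.04 to −0.48 in miR-18a-5p, from −1.11 to −0.56 in miR-20a-5p and from −0.79 to −0.22 in miR-92a-3p. Measured from that median the ranges were narrower: −0.80 to −0.68 for miR-20a-5p, −0.43 to −0.32 for miR-19a-3p, −0.31 to −0.18 for miR-19b-3p and −0.19 to −0.07 for miR-17-3p.

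**Figure D2:**
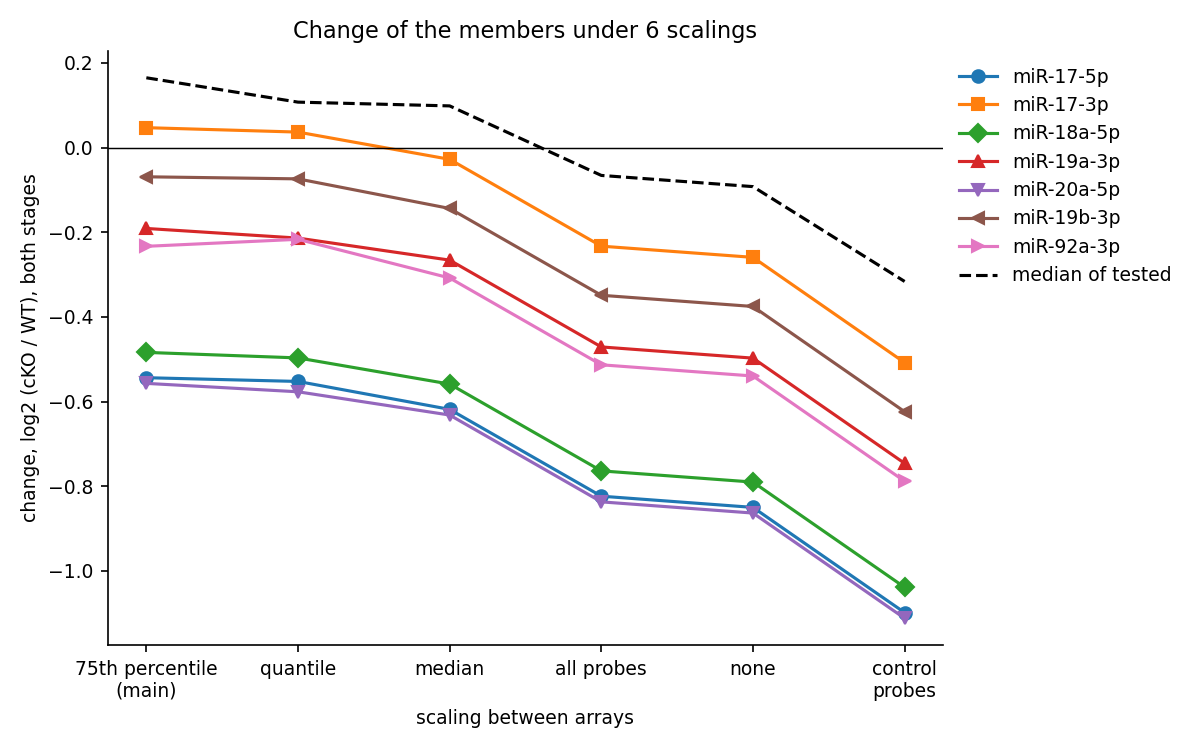
Change of each member between cKO and WT over both stages (vertical axis, log2) under 6 ways of scaling the arrays (horizontal axis, with percentile scaling as main); lines only join the points of 1 miRNA, and the dashed line is the median of all tested miRNAs. The members keep nearly the same distance below the dashed line, which runs from 0.17 with percentile scaling to −0.32 with control-probe scaling, and miR-17-3p crosses 0.

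At E16.5, 5 of 7 members were lower in cKO and none higher, against 15.1% of tested miRNAs called lower and 35.8% called higher. miR-18a-5p fell by 0.59 ± 0.0489 (SE, 2 arrays per group, limma adjusted p = 7.72e-04) and miR-20a-5p by 0.54 ± 0.0333 (adjusted p = 3.38e-04). miR-17-5p fell by 0.52, miR-92a-3p by 0.26 and miR-19a-3p by 0.23, the last with an adjusted p of 0.0274. Under all-probe scaling and without scaling, where values at E16.5 ranged from −0.81 to −0.45 for these 5 members, 0 of 7 passed in limma and 4 had an unadjusted p under 0.05. Of the 385 tested miRNAs, 18 were called lower with all-probe scaling and 17 without scaling, against 58 with percentile scaling. miR-19a-3p also lost its call without replicate 1 of either E16.5 group, at −0.25 (adjusted p = 0.0739) without that of cKO and at −0.15 (adjusted p = 0.0503) without that of WT, and without any 1 of the E17.5 arrays, which share its estimate of the spread (adjusted p of 0.0550 to 0.0660).

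At E17.5, 4 of 7 members were lower in cKO and 1 passed as higher, against 10.1% of tested miRNAs called lower and 35.8% called higher. miR-20a-5p fell by 0.57 ± 0.0333 (SE, 2 arrays per group, limma adjusted p = 2.57e-04) and miR-17-5p by 0.56 ± 0.0575 (adjusted p = 0.00152). miR-18a-5p fell by 0.38 and miR-92a-3p by 0.21, while miR-19a-3p was at −0.15 with an adjusted p of 0.0914. Both miR-18a-5p and miR-92a-3p lost their call with all-probe scaling and without scaling. The second probe of miR-92a-3p gave −0.15 (limma adjusted p = 0.0716). The one that passed as higher was miR-17-3p, at 0.13 ± 0.039 (adjusted p = 0.0472), against a median of 0.13 for all tested miRNAs. That call held in only 3 of 22 alternatives: the value turned negative in 5, among them its second probe (−0.07) and median scaling (−0.01), and missed the threshold in the other 14. It was lost on leaving out any 1 of the 8 arrays, with values of 0.08 to 0.16.

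The change of a member was not shown to differ between the stages. In the test of that difference, 0 of 7 members passed in limma, 2 had an unadjusted p under 0.05, and 0.779% of tested miRNAs were called in each direction. The largest difference, E17.5 minus E16.5, was that of miR-18a-5p, at 0.20 (95% interval 0.03 to 0.38, adjusted p = 0.138), followed by miR-17-3p at 0.16 (adjusted p = 0.141). miR-20a-5p was at −0.03 (95% interval −0.15 to 0.09). With control-probe scaling 2 of 7, miR-19b-3p and miR-20a-5p, were called lower in this test. Under that scaling 42 of the 385 tested miRNAs were called lower, and their median difference was −0.27.

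Between the stages few members passed. In cKO, 2 of 7 members were lower at E17.5 than at E16.5, against 20.3% of tested miRNAs called lower and 15.1% called higher: miR-17-5p at −0.24 (limma adjusted p = 0.0338) and miR-92a-3p at −0.20 (adjusted p = 0.0169). In WT, 3 of 7 were lower at E17.5, against 10.6% called lower and 4.16% called higher: miR-92a-3p at −0.26 (adjusted p = 0.0129), miR-18a-5p at −0.22 (adjusted p = 0.0452) and miR-17-3p at −0.21 (adjusted p = 0.0311). These directions depended on the scaling: without scaling the same WT values were 0.35, 0.38 and 0.39, none of which passed, and miR-19b-3p and miR-20a-5p passed as higher. Without scaling the WT median of all tested miRNAs was 0.47, and 181 of the 385 were called higher. miR-92a-3p was the one member called lower at E17.5 in both genotypes, while miR-20a-5p differed by −0.02 in cKO (95% interval −0.11 to 0.06) and by 0.01 in WT (−0.08 to 0.09). Leaving out any 1 of the 4 cKO arrays left 0 calls in cKO, and leaving out either E17.5 WT array left 1. The WT count became 0 without replicate 2 of E17.5 WT, and 1 without replicate 1 of E17.5 WT, E16.5 WT or E17.5 cKO.

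Ratios of 2 members on the same array do not depend on a factor that scales the whole array, and 4 pairs were compared. The pairs were chosen with earlier results of these data known, so their p-values are not independent support. The first pair was the 2 arms of the miR-17 hairpin. The log2 ratio of miR-17-5p over miR-17-3p was −0.47 and −0.45 in E16.5 cKO, against 0.06 and −0.01 in E16.5 WT. At E17.5 this ratio stood at −0.57 and −0.72 in cKO, against 0.09 and 0.01 in WT. All 4 cKO arrays lay below all 4 WT arrays, with a difference of −0.59 (two-sided exact permutation p = 0.0286, the smallest that 70 arrangements allow, adjusted p = 0.0381 over the 4 pairs). With arrays exchanged only within their stage, the exact permutation p was 0.0556, the smallest that 36 arrangements allow, and 0.0741 after adjustment, so this form cannot reach the threshold. All 13 target bases of the miR-17-5p probe are in miR-106a-5p, and 11 are in miR-20a-5p and miR-20b-5p. How far these relatives shaped the ratio of the arms was not tested.

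The 2 members with the miR-19 seed were compared next. The log2 ratio of miR-19a-3p over miR-19b-3p ranged from −2.93 to −2.91 in cKO, against −2.84 to −2.73 in WT. The groups did not overlap, and the difference was −0.12 (two-sided exact permutation p = 0.0286, adjusted p = 0.0381, 4 arrays per genotype). Within stage the exact permutation p was 0.0556 (adjusted 0.0741). miR-19a-3p comes from chromosome 14 only, and miR-19b-3p from chromosomes 14 and X. The 2 sequences differ only at U11C. Of the 21 target bases of the miR-19a-3p probe, an unbroken 12 are in miR-19b-3p. Of the 20 of the miR-19b-3p probe, an unbroken 12 are in miR-19a-3p. How far either probe took up the other miRNA was not tested.

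For the 2 members with the miR-17 seed, miR-17-5p over miR-20a-5p, a difference was not found. The log2 ratio ranged from −2.95 to −2.67 in cKO, against −2.95 to −2.70 in WT, with a difference of 0.01 (two-sided exact permutation p = 0.714, within stage 0.444, 4 arrays per genotype). The ratio was lower at E17.5 than at E16.5 in both genotypes, at −2.89 and −2.68 in cKO and at −2.90 and −2.70 in WT. The overlap of the miR-17-5p probe with miR-20a-5p shown above bears on this pair.

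The last pair, miR-20a-5p over miR-92a-3p, has unlike seeds. Its log2 ratio ranged from −0.0040 to 0.20 in cKO, against 0.22 to 0.58 in WT, a difference of −0.32 (two-sided exact permutation p = 0.0286, adjusted p = 0.0381, 4 arrays per genotype). The highest cKO arrays, both of E17.5, lay just under the lowest WT array, replicate 2 of E16.5. Within stage the exact permutation p was 0.0556 (adjusted 0.0741), and with the mean of all probes the unrestricted one was 0.0571. The unrestricted p was also 0.0571 on leaving out any 1 of the 4 cKO arrays, with differences of −0.36 to −0.29.

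**Figure D3:**
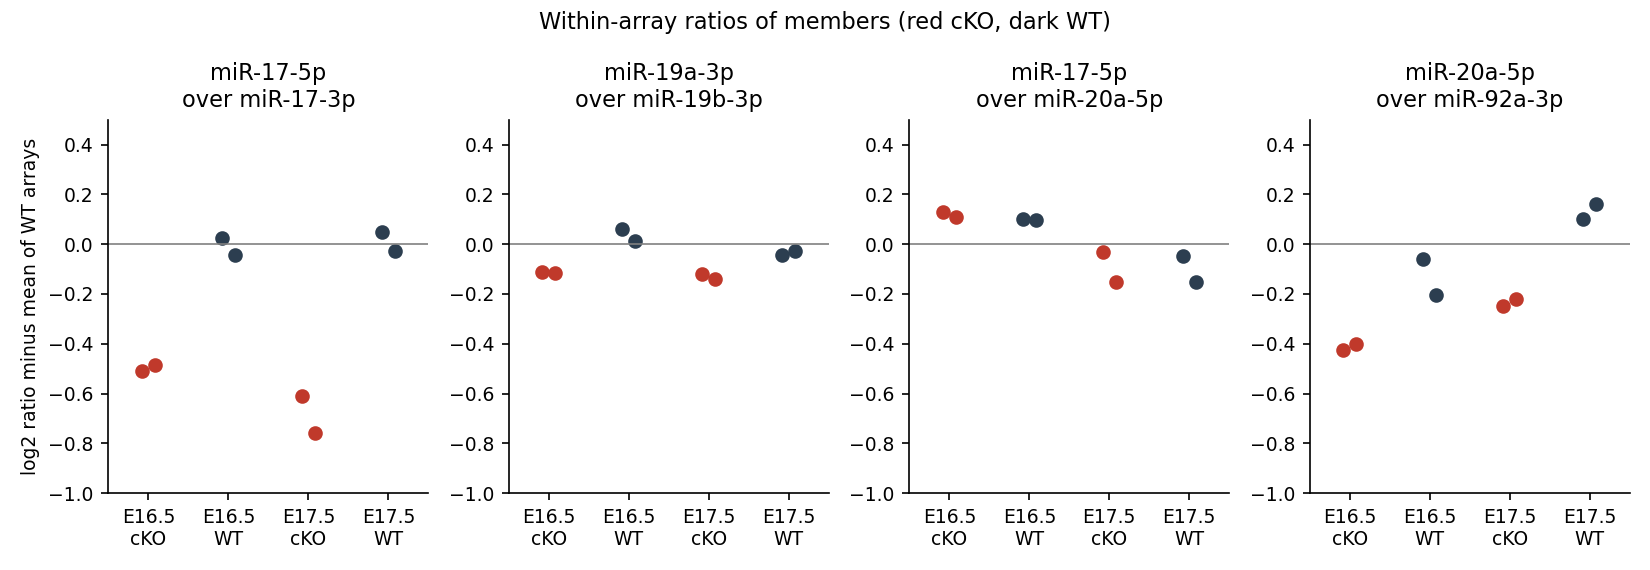
Log2 ratio of 2 members on the same array, minus the mean of the 4 WT arrays (vertical axis), for 4 pairs, with E16.5 cKO, E16.5 WT, E17.5 cKO and E17.5 WT along the horizontal axis and 1 point per array. The cKO arrays lie below all WT arrays in 3 pairs, by −0.59, −0.12 and −0.32 on average, and among them for miR-17-5p over miR-20a-5p.

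The cluster has a pair of paralogs, miR-106a-363 on chromosome X and miR-106b-25 on chromosome 5, which lies within the replication gene Mcm7. Of the 4 main strands of miR-106a-363 considered, 3 were on the array by name, and miR-20b-5p was tested while miR-18b-5p and miR-363-3p reached no array's detection limit. All 3 main strands of miR-106b-25 were tested. Their mature sequences carry the same seeds, in capitals, as members of miR-17-92 (RefSeq, GRCm38.p6).
miR-20b-5p: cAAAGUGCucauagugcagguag
miR-106b-5p: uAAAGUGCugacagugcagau
miR-93-5p: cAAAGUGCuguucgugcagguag
miR-25-3p: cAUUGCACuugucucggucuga

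The 3 paralogs with the miR-17 seed were each lower in cKO at both stages, and the paralog with the miR-92a seed did not pass. miR-20b-5p had a scaled signal of 0.616 and 0.640 in E16.5 cKO against 0.921 and 0.852 in E16.5 WT, and of 0.614 and 0.616 in E17.5 cKO against 0.905 and 0.952 in E17.5 WT. It fell by 0.50 at E16.5 (limma adjusted p = 0.00147) and by 0.59 at E17.5 (adjusted p = 8.14e-04). miR-106b-5p fell by 0.66 at E16.5 and by 0.59 at E17.5, and miR-93-5p by 0.74 at E16.5 and by 0.55 at E17.5 (adjusted p from 8.05e-04 to 0.00205). miR-25-3p was at −0.08 at E16.5 and at −0.02 at E17.5 (adjusted p = 0.29 and 0.907), and over both stages at −0.05 with a 95% interval of −0.15 to 0.06. Over both stages miR-25-3p passed as lower under 1 of 6 scalings and the other 3 under 6 of 6. At E16.5 those 3 passed under 4 of 6, and at E17.5 miR-93-5p passed under 5 of 6 and the other 2 under 6 of 6.

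Set side by side over both stages, the 5 tested miRNAs with the seed AAAGUGC had changes between −0.64 and −0.54, whichever of the 3 loci they came from. The other seeds gave −0.48 for miR-18a-5p, −0.19 and −0.07 for the miR-19 pair, and −0.23 and −0.05 for miR-92a-3p and miR-25-3p. Relatives share stretches of sequence outside the seed too, and probes of one may take up another, which was not tested. Examples are the 11 bases shown above, and an unbroken 13 of the 19 target bases of the miR-20a-5p probe in miR-20b-5p. The grouping by seed was made with results of these data known and has no test.

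**Figure D4:**
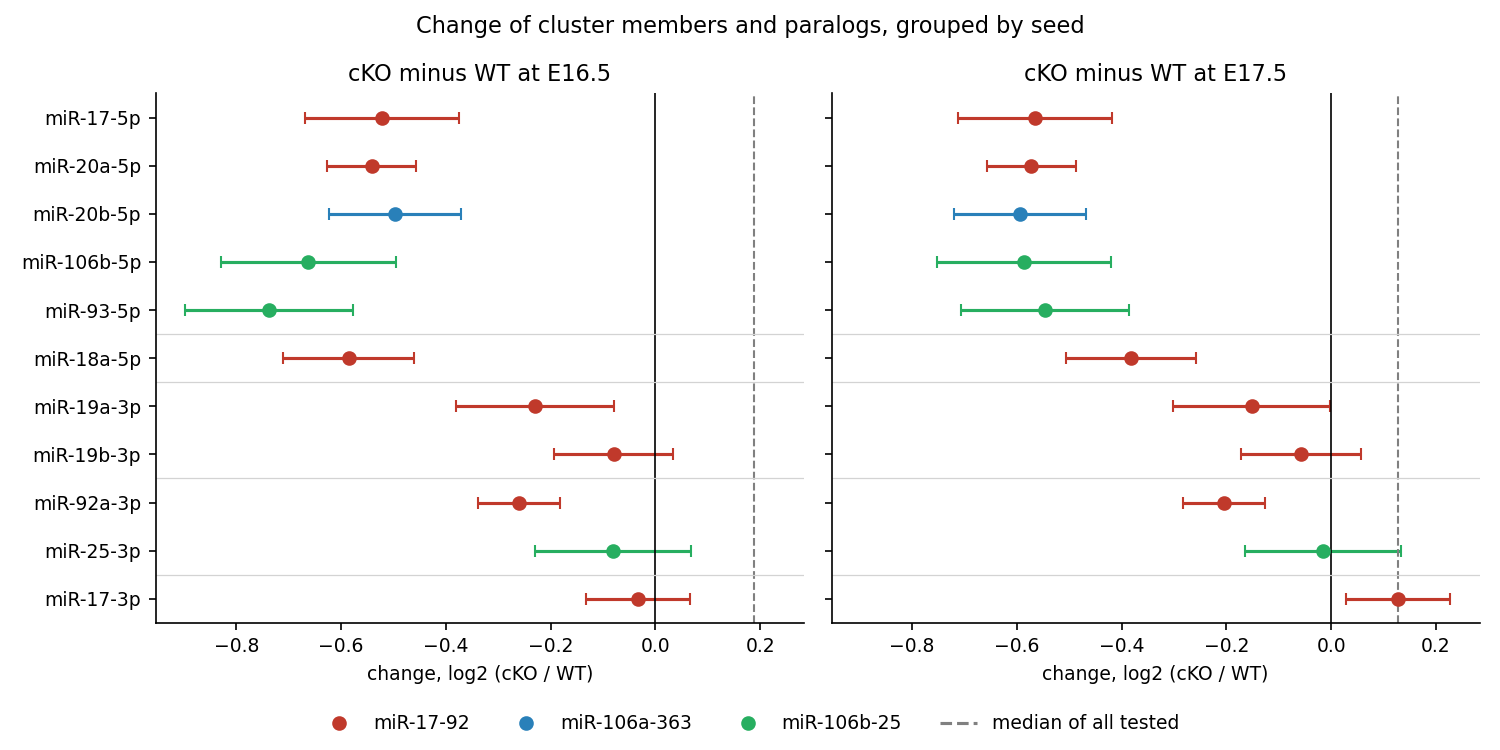
Change between cKO and WT (horizontal axis, log2, with 95% intervals from limma) at E16.5 (left) and E17.5 (right) for the 7 members and 4 tested paralogs, in blocks by seed and coloured by cluster. The 5 miRNAs of the top block, from 3 clusters, lie between −0.74 and −0.50, while miR-19b-3p, miR-25-3p and miR-17-3p lie nearer to 0; the dashed line is the median of all tested miRNAs.

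The other arms of the hairpins gave little signal. miR-18a-3p, miR-19a-5p, miR-19b-1-5p and miR-92a-1-5p were detected on 0 of 8 arrays, and miR-20a-3p on 1 array only, so none was tested. The same held for miR-32-5p, miR-92b-3p and miR-367-3p, which share the miR-92a seed and lie elsewhere in the genome. miR-106b-3p, the other arm of miR-106b, was tested and was at −0.03 (limma adjusted p = 0.766) over both stages.

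With percentile scaling, other miRNAs linked to the cell cycle were called lower or higher at shares near those of all tested miRNAs. Of 10 such miRNAs, all tested, 2 were lower and 5 higher in cKO over both stages with percentile scaling, but 9 were lower and 0 higher with control-probe scaling. Among all 385 tested miRNAs, 14.5% were lower and 45.7% higher with percentile scaling, where the median change was 0.17. With control-probe scaling 284 of the 385 were lower and 4 higher. The 2 lower ones were miR-34a-5p, a target of p53, at −1.72 (limma adjusted p = 2.26e-05), and miR-221-3p, which represses the inhibitor Cdkn1b, at −1.21. The 5 higher ones, miR-15a-5p, miR-16-5p, miR-195a-5p, miR-322-5p and miR-503-5p, share the miR-15 family's restraint of cyclins and had changes of 0.20 to 0.26, each turning negative with control-probe scaling. Not all of that family were higher: miR-15b-5p ranged from −0.48 to 0.07 over 6 scalings, called lower under 1 and higher under 0. miR-222-3p lay at the floor on all arrays after scaling, so its value carries no information on a change.

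The 6 miRNAs outside these families whose profile over the 8 arrays was nearest to the mean profile of the members were miR-331-3p, miR-345-5p, miR-1839-5p, miR-98-5p, miR-744-5p and miR-324-5p. Nearness was the root mean square difference of mean-centred log2 values, between 0.0587 and 0.0888. All 6 were lower in cKO over both stages, with changes of −0.31 (miR-331-3p) to −0.22 (miR-744-5p). They were picked on these same arrays for likeness to a profile that was lower in cKO, so this direction is not a separate result. With quantile scaling 3 of these 6 were still among the nearest 6, as were 3 without replicate 1 of E16.5 cKO and 4 or 5 without any other array.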

How the data were processed

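Agilent Feature Extraction 11.5.1.1 was used by the submitters, per the file headers, and its background-subtracted intensity per spot is the deposited unit, with no scaling between arrays. Probe annotation in the headers uses mm9. The deposited value table, of the same intensity, served as an alternative. Outlier-marked spots (2.84% to 6.02% per array) were left out, 0 were saturated, and the 15 spots of a probe were averaged. A probe was detected where over 50% of its spots were well above background. Arrays were divided by the 75th percentile of 474 probes detected on all 8, raised to a floor (−4.24 on the log2 scale) and log2-transformed, so the log2 values are not the authors' deposited ones. The brightest probe stood for each miRNA, and miRNAs detected on both arrays of a group were tested: 4 group means, limma 3.58.1 in R 4.3.3 (eBayes with trend, residual df 4, prior df 1.08), with Benjamini-Hochberg adjustment at 0.05 within each of 6 contrasts, tested on simulated data. Pairs were compared by exact permutation. Alternative scalings were quantile, the median of detected probes, the 75th percentile of all probes, positive control probes, and none; background correction (normexp), floor, filter, probe choice, the deposited table, a replicate block and leaving out each array were also varied. The cluster's members, the lists, the pairs and the naming rule (all members, other arms, paralogs, seed relatives, cell-cycle and marker lists, the 6 nearest profiles) were chosen with earlier results of these data known. Sequences came from RefSeq (GRCm38.p6). Figures used matplotlib 3.10.9.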

Additional observations from a re-analysis of the deposited data

How the results depend on the processing

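Counts of members called over both stages were 4 to 7 lower under every alternative run. The count was 4 with all-probe scaling, 4 without scaling and 7 with control-probe scaling, against 44, 54 and 284 of the 385 tested miRNAs. At E16.5 the count lower was 0 with all-probe scaling and 0 without scaling, against 18 and 17 of the 385 tested miRNAs. In each, 4 members had an unadjusted limma p under 0.05. At E17.5 it was 2 with all-probe scaling, 2 without scaling and 7 with control-probe scaling, against 32, 47 and 317 of the 385 tested miRNAs. The E17.5 count higher was 0 in place of 1 in every alternative except quantile scaling, the floor at the 10th percentile and the deposited table. Leaving out 1 array gave 4 to 6 lower and 0 higher in each of these 3 comparisons, 0 to 3 lower between stages in WT and 0 to 2 in cKO. In WT, control-probe scaling called 3 members higher at E17.5 than at E16.5 and no scaling 2, against 174 and 181 of the 385 tested. The WT count lower at E17.5 was 0 with all-probe, control-probe or no scaling and with only the arrays compared. That count was 1 with quantile or median scaling, the second probes or the replicate block. In cKO the count lower was 0 with all-probe, control-probe or no scaling. It was 1 with quantile scaling, the mean of all probes, the second probes, outlier spots kept or only the arrays compared. The stage difference had 2 lower with control-probe scaling, where miR-19b-3p was at −0.34, against 42 of the 385 tested miRNAs called lower. The cause of these shifts was not tested.

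Signs turned as follows with all-probe, control-probe and no scaling. Between stages in WT miR-17-3p was at 0.16, 0.13 and 0.39, miR-18a-5p at 0.15, 0.12 and 0.38, and miR-92a-3p at 0.12, 0.083 and 0.35, with miR-19a-3p at 0.33 under control-probe scaling. In cKO miR-17-5p was at 0.037 with all-probe and 0.21 with no scaling, and miR-92a-3p at 0.073 and 0.24. The E17.5 value of miR-17-3p was −0.20, −0.61 and −0.26, with median scaling −0.0093 and with its second probe −0.068, and over both stages it was −0.23, −0.51 and −0.26, with median scaling −0.03 and with the second probe −0.10. The pair miR-20a-5p over miR-92a-3p was at −0.34 with the mean of all probes and at −0.39 to −0.27 on leaving out arrays, and miR-17-5p over miR-20a-5p at −0.037 to 0.069.

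The labels number the replicates but tie no number to an animal or litter; each number lies in its own row of the slide. Deviations of arrays with the same number correlated at −0.14 to 0.28, so the numbers were not taken as pairs. With the replicate block, the count lower was 5 over both stages, again 5 for E16.5 and 4 for E17.5, and 0 were higher at E17.5 (miR-17-3p at 0.13, limma adjusted p = 0.0778). With 2 arrays per group the spread rests on few degrees of freedom, and signal over background limits the other arms most.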

Other observations

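Within the miR-106b-25 cluster the ratio of its miR-17-seed and miR-92a-seed miRNAs was set beside that of miR-17-92 after the values had been seen, so it has no test. The log2 ratio of miR-93-5p over miR-25-3p ranged from −1.06 to −0.92 on the 4 cKO arrays, against −0.49 to −0.31 on the 4 WT arrays, without overlap. Its analogue in miR-17-92, miR-20a-5p over miR-92a-3p, differed by −0.32 in the report. In both pairs the miRNA with the AAAGUGC seed was lower in cKO relative to the miRNA with the AUUGCAC seed. The miR-92a-3p probes also read the chromosome X hairpin, so the ratio with miR-20a-5p is not of the miR-17-92 locus alone.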
